A study of Mus musculus with 12 samples.

Results

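The expression of 5 simple epithelial keratins was followed in embryonic mouse hearts. The 5 genes, *Krt7*, *Krt8*, *Krt18*, *Krt19* and *Krt80*, were picked by symbol from the 20368 genes of the deposited table. They were selected on their mutant and control values in these same libraries, so their mutant against control values are a description, and no result rests on whether these 5 genes passed a threshold. Genes outside the 5 were tested in the same fits. RNA was sequenced from hearts of the CD1 strain at embryonic day (E) 11.5 and E12.5, with 3 libraries in each of 4 groups. The E11.5 Cre control and the E12.5 Cre control groups had the genotype Mesp1Cre;Hira+/fl. The E11.5 Mutant and the E12.5 Mutant groups had the genotype Mesp1Cre;Hira-/fl. All 4 groups therefore carried the Cre gene and a floxed *Hira* allele, and the control hearts kept a wild-type *Hira* allele where the mutants had a null allele. *Hira* encodes a chaperone that deposits the histone variant H3.3. Mesp1Cre acts in the early cardiogenic mesoderm, so heart cells of another origin were not targeted. The sources do not say how many hearts went into a library, and p-values here measure the spread between libraries.

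Keratins are the intermediate filaments of epithelial cells, and a filament is built from a type I and a type II chain in equal amounts. *Krt18* and *Krt19* encode type I chains. *Krt7*, *Krt8* and *Krt80* encode type II chains. The simple keratins are the filaments of single-layered epithelia such as the mesothelium, whose cardiac part is the epicardium, and *Krt8* and *Krt18* are also made by early heart muscle. Whole hearts were sequenced, so fewer cells of a type and less RNA per cell cannot be told apart.

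Total counts per library ran from 11994148 to 17483982. The cardiomyocyte list, 12 genes of the contractile apparatus and of heart identity, summed to between 18944 and 26677 RPKM (reads normalised for the length of the gene and the size of the library), and no library lacked them. *Hira* stood at 17.1 ± 1.91 RPKM (SD, n = 3) in control and 14.3 ± 1.98 RPKM in mutant hearts at E11.5, and at 16.5 ± 2.81 and 16.4 ± 1.17 RPKM at E12.5. The counts are per gene and cannot show the removal of an exon, so *Hira* did not check the labels. By Y-linked counts all 3 E11.5 control libraries were from males, against 1 of 3 in each other group. Some libraries also held genes of other tissues, as described with the results. *Afp*, a gene of liver and yolk sac, *Cdh1*, the cadherin of epithelia, or *Krt5*, a keratin of stratified epithelia, exceeded 2 RPKM in 4 libraries. These were E11.5 Cre control 1, E11.5 Mutant 1, E12.5 Mutant 1 and E12.5 Mutant 3.

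Of the 5 genes, 4 lie on chromosome 15, in the type II keratin cluster and beside it. In the GRCm38 coordinates of the files, *Krt80* covers chr15:101349571-101370125 on the minus strand, *Krt7* chr15:101411043-101430313 on the plus strand, *Krt8* chr15:101996711-102004342 on the minus strand and *Krt18* chr15:102028216-102032026 on the plus strand. *Krt18* is the type I gene that sits outside the type I cluster, 23697 bases from *Krt8* in the GENCODE vM21 annotation. *Krt19* lies in the type I cluster, at chr11:100140810-100148665 on the minus strand. In that annotation *Krt80* is overlapped over its whole length by the antisense gene *Gm35853*, *Krt7* over 1269 bases by *Gm671* and *Krt8* over 271 bases by *Gm36026*. Use of the strand in counting is not stated, so reads of these partners could not be told apart. *Krt8* also has a processed pseudogene, *Krt8-ps*, on chromosome 7, with which near-identical reads could be shared.

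Upstream windows are shown for *Krt7*, *Krt8* and *Krt18*, the 3 of the 5 genes in the RefSeq promoter table, so that the adjacent partners *Krt8* and *Krt18* can be read beside *Krt7*, whose groups stood in another order. Each is the 250 bases before the RefSeq start on GRCm38.p6, 5′ to 3′ on the strand of the gene, and covers chr15:101412153-101412402 (plus) for *Krt7*, chr15:102004343-102004592 (minus) for *Krt8* and chr15:102027966-102028215 (plus) for *Krt18*. Capitals mark matches on either strand to any of 5 motifs, which were the TATA box TATAAA, the GC box GGGCGG, an AP-1 site TGANTCA, an AP-2 site GCCNNNGGC and GAGAGAGA.
Krt7: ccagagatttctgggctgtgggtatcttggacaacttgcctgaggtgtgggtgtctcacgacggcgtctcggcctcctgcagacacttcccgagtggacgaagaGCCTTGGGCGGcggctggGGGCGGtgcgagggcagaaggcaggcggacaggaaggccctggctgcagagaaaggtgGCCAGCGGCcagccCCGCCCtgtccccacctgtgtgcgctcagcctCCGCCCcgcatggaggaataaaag
Krt8: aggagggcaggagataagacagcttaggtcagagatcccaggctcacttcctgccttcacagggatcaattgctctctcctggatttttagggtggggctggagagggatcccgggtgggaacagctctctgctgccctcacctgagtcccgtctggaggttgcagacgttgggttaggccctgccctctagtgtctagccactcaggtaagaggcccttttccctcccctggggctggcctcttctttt
Krt18: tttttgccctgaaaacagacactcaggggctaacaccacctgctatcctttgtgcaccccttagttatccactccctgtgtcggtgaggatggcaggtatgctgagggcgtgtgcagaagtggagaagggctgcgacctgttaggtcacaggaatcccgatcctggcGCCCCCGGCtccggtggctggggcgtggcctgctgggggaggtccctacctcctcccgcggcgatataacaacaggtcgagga
The *Krt7* window held 4 GC boxes, beginning 141, 128, 56 and 24 bases upstream, and 2 AP-2 motifs, beginning 146 and 70 bases upstream. The capitals at 146 and 141 bases overlap. The *Krt18* window held 1 AP-2 motif, 83 bases upstream, and the *Krt8* window held none of the 5. A GC box was present in 32.7% and an AP-2 motif in 13.7% of 32851 windows of the same length, so neither is rare. TATAAA was present in 12.4% of windows, TGANTCA in 6.75% and GAGAGAGA in 3.26%. The G and C content was 66.0% for *Krt7*, 58.0% for *Krt8* and 60.4% for *Krt18*, above the median of 52.4%. *Krt19* and *Krt80* are named only. The RefSeq start of *Krt7* lies inside the gene as the files place it.

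*Krt8* and *Krt18*, the partners that pair in simple epithelia, showed a large difference between mutant and control hearts at E12.5. At E11.5 the difference was small for *Krt8*, and the groups overlapped for *Krt18*. *Krt8* was at 34.4, 25.3 and 30.4 RPKM in the E11.5 Cre control libraries and at 38.3, 36.5 and 36.4 RPKM in the E11.5 Mutant libraries. At E12.5 the controls were at 9.96, 7.44 and 11.7 RPKM and the mutants at 24.4, 25.0 and 31.6 RPKM. Every mutant library lay above every control library at both stages, by little at E11.5 and by a wide gap at E12.5. The log2 fold change was 0.30 (SE 0.14) at E11.5 and 1.48 (SE 0.16) at E12.5, which is a 2.79-fold difference at E12.5. *Krt18* was at 42.0, 35.1 and 50.9 RPKM in the E11.5 controls and at 41.7, 36.1 and 57.3 RPKM in the E11.5 mutants. Those groups overlapped. At E12.5 *Krt18* was at 17.0, 15.8 and 25.4 RPKM in the controls and at 36.9, 31.6 and 34.3 RPKM in the mutants, with no overlap. Its log2 fold change was 0.08 (SE 0.20) at E11.5 and 0.82 (SE 0.16) at E12.5.

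*Krt19*, the smallest keratin, was the most abundant of the 5 in every library. It was at 67.7, 54.9 and 78.3 RPKM in the E11.5 controls and at 92.3, 96.8 and 128 RPKM in the E11.5 mutants. At E12.5 the controls were at 38.1, 40.4 and 52.7 RPKM and the mutants at 86.6, 86.3 and 101 RPKM. All mutant libraries were above all control libraries at both stages, and the E12.5 mutants were also above every E11.5 control. The log2 fold change was 0.66 (SE 0.18) at E11.5 and 1.06 (SE 0.12) at E12.5. By mean level *Krt19* ranked 1973 of 17827 genes with reads in the E12.5 controls and 913 in the E12.5 mutants.

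*Krt7*, a type II keratin of mesothelium and ducts, was on opposite sides at the 2 stages. It was at 33.0, 34.8 and 48.7 RPKM in the E11.5 controls and at 23.1, 28.2 and 23.6 RPKM in the E11.5 mutants. At E12.5 the controls were at 17.4, 18.9 and 22.9 RPKM and the mutants at 25.0, 27.9 and 28.6 RPKM. Each mutant library was below every control library at E11.5 and above every control library at E12.5. The means of the mutants were 24.9 and 27.2 RPKM at the 2 stages and those of the controls 38.8 and 19.7 RPKM. The log2 fold change was -0.64 (SE 0.17) at E11.5 and 0.46 (SE 0.11) at E12.5.

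*Krt80*, a type II keratin with the lowest mean level of the 5 in each group, was higher in mutants at both stages. It was at 2.75, 2.13 and 2.29 RPKM in the E11.5 controls and at 6.46, 6.80 and 6.91 RPKM in the E11.5 mutants. At E12.5 the controls were at 6.25, 8.65 and 6.42 RPKM and the mutants at 17.0, 13.6 and 10.6 RPKM. No group overlapped the group it was compared with within a stage, and the E11.5 mutants stood at the level of the E12.5 controls. The log2 fold change was 1.49 (SE 0.20), or 2.81-fold, at E11.5 and 0.94 (SE 0.18) at E12.5. Its counts ran from 58 in 1 E11.5 control library to 448 in 1 E12.5 mutant library. They were the lowest of the 5 genes, and so carry the most counting error, in every library but E12.5 Cre control 2. There *Krt8* had 240 counts and *Krt80* 274.

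**Figure D1:**
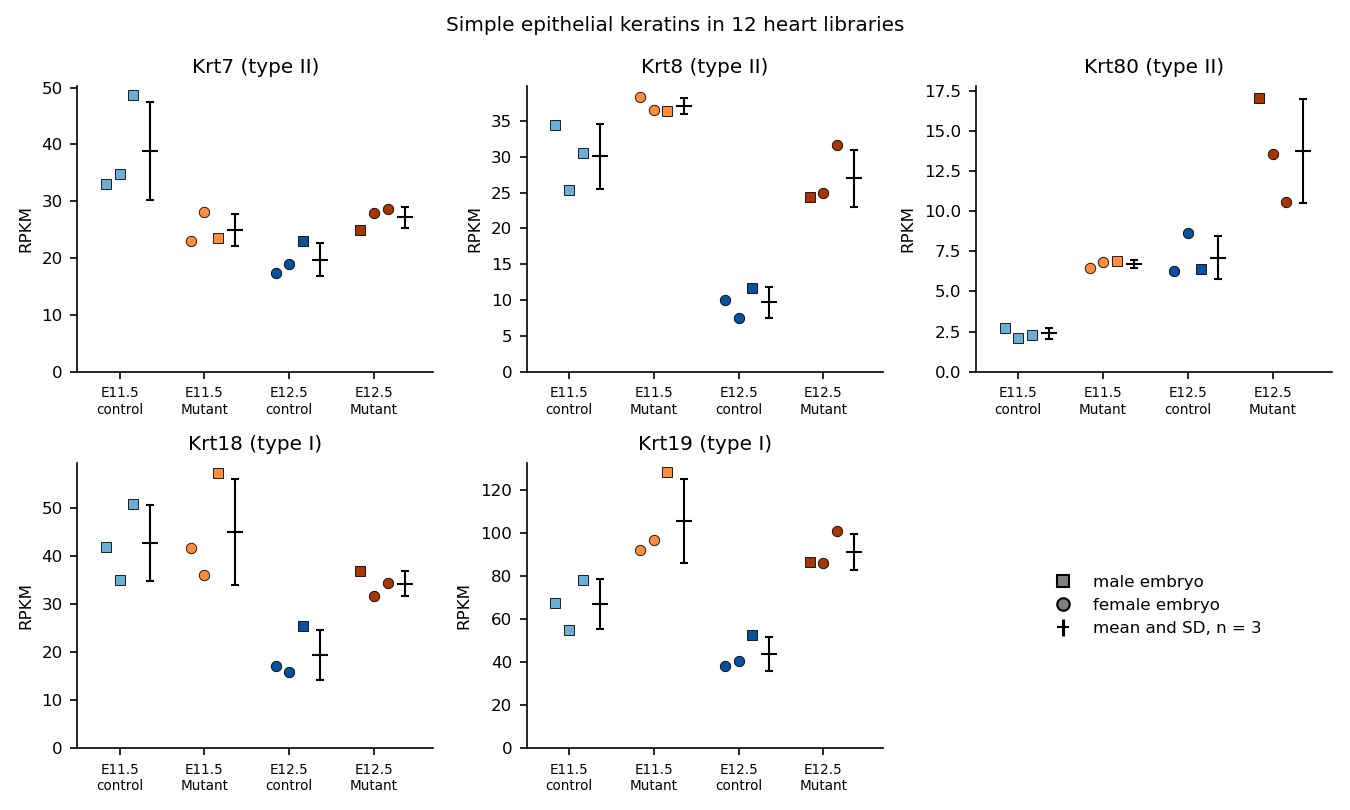
RPKM (vertical axes, from 0) of the 5 keratins in each of the 12 libraries by group, with the mean and SD of 3 libraries beside the points and the sex of the embryo by the shape of the point. *Krt8*, *Krt18*, *Krt19* and *Krt7* are lowest in the E12.5 control hearts, where *Krt8* lies between 7.44 and 11.7 RPKM, and *Krt80* is lowest in the E11.5 control hearts.

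The order of the 4 groups differed between genes. For *Krt8* and *Krt18* the order from the lowest mean was E12.5 control, E12.5 mutant, E11.5 control and E11.5 mutant. The E12.5 mutant and E11.5 control libraries overlapped for both genes, as did the E11.5 control and mutant libraries for *Krt18*. For *Krt19* it was E12.5 control, E11.5 control, E12.5 mutant and E11.5 mutant, and only the mutant groups overlapped as neighbours. For *Krt7* it was E12.5 control, E11.5 mutant, E12.5 mutant and E11.5 control, again with an overlap of the mutant groups alone. For *Krt80* it was E11.5 control, E11.5 mutant, E12.5 control and E12.5 mutant, where the middle groups overlapped. The coefficient of variation within a group ranged from 2.90% to 26.8% over the 5 genes.

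Counts of genes past the thresholds are given with the share of all tested genes that passed. A call needed an adjusted p of at most 0.05 by edgeR's quasi-likelihood test, Benjamini-Hochberg adjusted over all genes, together with a 1.5-fold change or more. These 5 keratins were chosen on these contrasts, so their counts are printed beside that share and nothing is read from them. At E11.5, 1 of the 5 keratins, *Krt80*, was called higher in mutants, beside 6 of 12197 genes (0.0492%) called higher and 8 (0.0656%) called lower. At E12.5, 4 of 5 were called higher, beside 1.59% of 12257 genes called higher and 1.36% called lower. *Krt7* passed the adjusted p but not the fold threshold. An unadjusted p under 0.05 by edgeR was reached by 1242 of 12197 genes at E11.5 and by 2621 of 12257 at E12.5. Between the stages it was reached by 4017 of 12252 genes in controls and by 1134 of 12238 in mutants. By separation of the libraries, 3 keratins lay above at E11.5 (8.32% of all genes did) and 1 below (7.99%), and 5 lay above at E12.5 (13.7% above and 12.6% below). The single call at E11.5 was lost when any 1 of the 6 libraries was left out. Those fits called 0 to 15 genes of the whole table, against 14 with all libraries. At E12.5 the count fell to 2, *Krt8* and *Krt19*, without E12.5 Cre control 1 or without E12.5 Mutant 1. Over the whole table those 2 fits called 151 and 216 genes, against 362 with all libraries. The count stayed at 3 or 4 without any other single library, beside 235 to 368 genes of the whole table.

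The comparison of stages asks how the keratins changed over the day between E11.5 and E12.5 within each genotype. It uses the same control and mutant values on which the genes were chosen, and a choice of genes higher in E12.5 mutants favours genes low in E12.5 controls. The values of the 5 genes are therefore a description here too, without p-values. In control hearts all 5 keratins were past the thresholds: 4 fell and *Krt80* rose. *Krt8* fell by 1.63 on the log2 scale (SE 0.17), a 3.10-fold drop. *Krt18* fell by 1.14 (SE 0.19), *Krt7* fell by 0.97 (SE 0.16) and *Krt19* fell by 0.61 (SE 0.15). *Krt80* rose by 1.57 (SE 0.20), or 2.97-fold. In each case the 3 E12.5 libraries lay on the same side of the 3 E11.5 libraries. Of 12252 genes, 2.43% were called lower and 2.85% higher at E12.5 in controls, and 18.5% lay wholly below and 18.9% wholly above.

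In mutant hearts none of the 5 keratins was called between the stages by edgeR, beside 0.294% of 12238 genes called higher and 0.261% called lower. DESeq2 called 1, *Krt80*, and 227 genes of the whole table, against 68 by edgeR. *Krt80* was at 1.02 on the log2 scale (SE 0.19) and the E12.5 libraries were all above the E11.5 libraries, as were those of 9.42% of genes. *Krt8* had -0.47 (SE 0.13) with all E12.5 libraries below, as for 7.98% of genes. *Krt18* had -0.40 (SE 0.17), *Krt19* had -0.22 (SE 0.15) and *Krt7* had 0.11 (SE 0.12). Unadjusted, 3 of the 5 had a p under 0.05 by edgeR, beside 1134 of 12238 genes. A p that misses the threshold does not show that the levels were alike. Subtracting the E11.5 from the E12.5 mutant effect gave 1.17 (SE 0.23) for *Krt8*, 1.10 (SE 0.22) for *Krt7*, 0.74 (SE 0.28) for *Krt18*, 0.40 (SE 0.23) for *Krt19* and -0.54 (SE 0.27) for *Krt80*, as a description on the log2 scale. Over all 12270 genes 0 (0%) passed this test by edgeR, 551 had an unadjusted p under 0.05, and DESeq2 called 43.

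**Figure D2:**
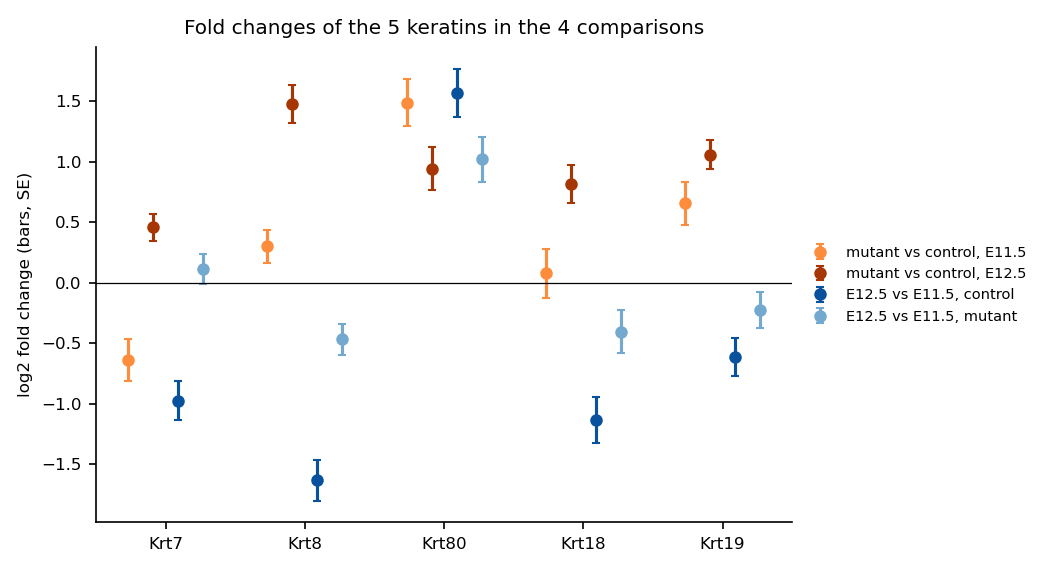
Log2 fold changes with SE (vertical axis) of the 5 keratins in the mutant against control comparison at each stage and in the E12.5 against E11.5 comparison in each genotype. In control hearts *Krt8* fell by 1.63 and *Krt80* rose by 1.57, and in mutant hearts the values between the stages lie between -0.47 and 1.02.

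Sex ran with these comparisons. The E11.5 controls were all male and 2 of the 3 E12.5 controls were female. With the sex of the embryo as a covariate, no keratin was called between the stages in control hearts, and 19 genes were called over the whole table. The fitted changes then were -1.36 (SE 0.23) for *Krt8*, -0.75 (SE 0.21) for *Krt18*, -0.76 (SE 0.22) for *Krt7*, -0.35 (SE 0.19) for *Krt19* and 1.42 (SE 0.27) for *Krt80*. Among males alone, the single E12.5 control was at 11.7 RPKM of *Krt8* against a mean of 30.0 RPKM in the 3 E11.5 controls. For all 5 genes this male library lay outside the range of the E11.5 males on the same side as its group. At E12.5, where each genotype had 1 male and 2 females, 4 keratins and 384 genes of the whole table were called with the covariate. Within each sex the E12.5 mutants lay above the controls for all 5 genes, on values that are among those the genes were chosen on. At E11.5 the single male mutant was at 6.91 RPKM of *Krt80* and 128 RPKM of *Krt19*, above the male controls, and at 23.6 RPKM of *Krt7*, below them. With the covariate no keratin and 29 genes of the table were called at E11.5, where *Krt80* had 1.54 (SE 0.26) and *Krt19* 0.95 (SE 0.18) on the log2 scale.

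Genes of other epithelia and of liver were unevenly spread over the libraries. *Krt5* was at 12.9 RPKM in E12.5 Mutant 3 and at most at 0.446 RPKM in any other library. *Krt15*, another keratin of stratified epithelia, was at 3.95 RPKM in that library and at most at 0.239 RPKM elsewhere. *Cdh1* was at 2.20 RPKM in E12.5 Mutant 3 and at 2.52 RPKM in E11.5 Cre control 1. *Alb*, the albumin gene of liver, was at 9.15 RPKM in E12.5 Mutant 1 and at most at 0.438 RPKM elsewhere. E12.5 Mutant 2 had *Krt5* at 0.268, *Cdh1* at 0.0532, *Afp* at 0.647 and *Alb* at 0.172 RPKM. In the same library *Krt14*, of basal epidermal cells, was at 3.36 RPKM, the tight junction gene *Cldn3* at 3.39 RPKM and *Sfn*, of stratified epithelia, at 0.655 RPKM, each above every E12.5 control. The summed stratified epidermis list of 6 genes ran from 5.44 to 28.3 RPKM in E12.5 mutants and from 2.76 to 4.02 RPKM in E12.5 controls. The summed liver list of 8 genes ran from 3.15 to 27.6 RPKM in E12.5 mutants and from 2.89 to 3.54 RPKM in E12.5 controls. None of 11 foregut and lung genes reached the level for testing. They summed to 0.255 to 2.46 RPKM in mutants and 0.385 to 0.488 RPKM in controls at E11.5, and to 0.468 to 1.03 RPKM in mutants and 0.157 to 0.363 RPKM in controls at E12.5.

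Leaving out the 4 libraries with over 2 RPKM of *Afp*, *Cdh1* or *Krt5*, a choice made after seeing the data, left 1 mutant library at E12.5, which is then assumed to vary as the others do. The E12.5 differences were then 1.37 (SE 0.20) for *Krt8*, 0.98 (SE 0.16) for *Krt19*, 0.93 (SE 0.20) for *Krt80*, 0.70 (SE 0.22) for *Krt18* and 0.50 (SE 0.16) for *Krt7*, and 1 of the 5, *Krt8*, was called, among 29 genes of the whole table against 362 with all libraries. At E11.5 none was called of the 5 or of the table (14 with all libraries), and *Krt80* had 1.64 (SE 0.30). Between the stages in control hearts 4 of 5, all but *Krt19*, were called among 263 genes, against 647 with all libraries. Of 4 erythroid genes tested at E12.5, 2 were called: *Slc4a1* and *Epb42*, genes of the red blood cell membrane, fell in mutants by 1.64 and 1.66 on the log2 scale (adjusted p = 0.00233 and 0.00552, edgeR), and the 4 genes summed to 18.1 to 25.4 RPKM in mutants and 40.4 to 78.6 RPKM in controls. Between the stages all 4 were called lower in mutant hearts, with a median of -2.19 on the log2 scale, and 2 of 4 in control hearts. The 4 genes summed at E11.5 to 56.9 to 113 RPKM in mutants and 61.5 to 81.8 RPKM in controls. The part of blood content in the keratin values was not tested.

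**Figure D3:**
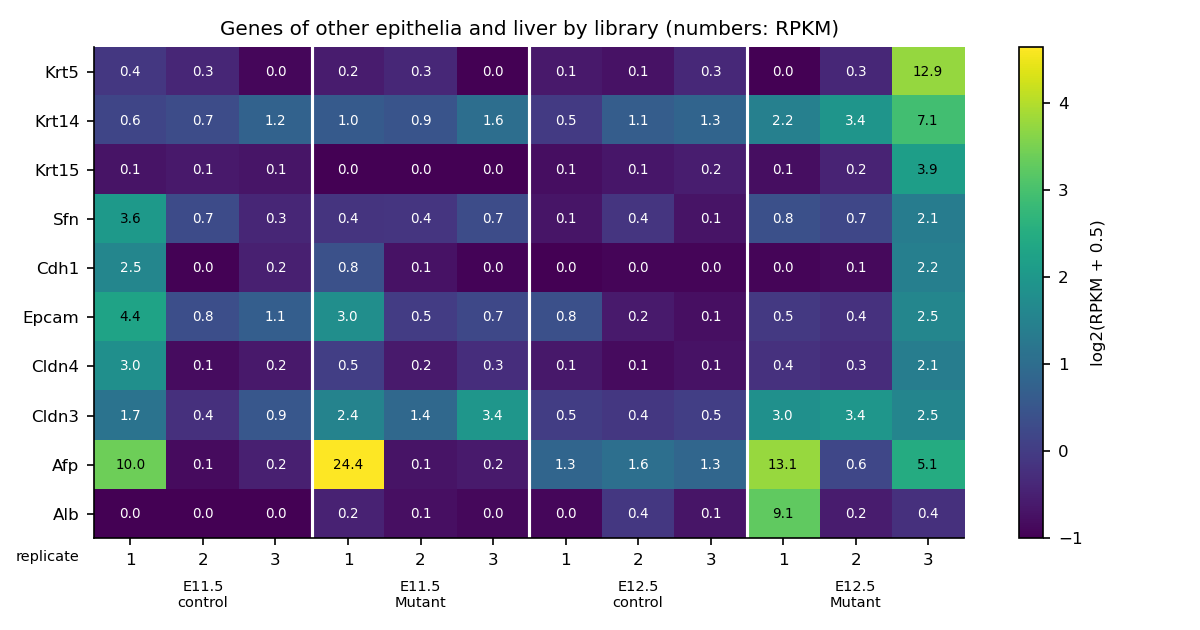
RPKM (numbers in the cells, colour on a log2(RPKM + 0.5) scale) of 10 genes of stratified or simple epithelia and of liver (rows) in the 12 libraries (columns, by group and replicate). *Krt5* reaches 12.9 RPKM in E12.5 Mutant 3 alone, *Alb* 9.15 RPKM in E12.5 Mutant 1 alone, and *Cldn3* is higher in all 3 E12.5 mutants than in all 3 E12.5 controls.

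The keratin messenger RNA as a whole was lowest in E12.5 control hearts. At E11.5 the 5 genes summed to 152 to 211 RPKM in controls and 202 to 252 RPKM in mutants. At E12.5 the sums were 88.7 to 119 RPKM in controls and 184 to 206 RPKM in mutants. The E12.5 mutants thus lay within the range of the E11.5 controls. The summed RNA of the type I genes *Krt18* and *Krt19* exceeded that of the type II genes *Krt7*, *Krt8* and *Krt80* in every library. Protein was not measured here. The ratio of type I to type II RNA at E11.5 was 1.53 ± 0.0754 (SD, n = 3) in controls and 2.20 ± 0.498 in mutants. At E12.5 it was 1.72 ± 0.161 in controls and 1.85 ± 0.0697 in mutants. *Krt7* per *Krt8* was lower in mutants than in controls, without overlap, at both stages. At E11.5 it was 1.31 ± 0.324 in controls and 0.674 ± 0.0875 in mutants, and at E12.5 it was 2.08 ± 0.412 in controls and 1.01 ± 0.107 in mutants. *Krt7* exceeded *Krt8* in all 3 E12.5 controls, in 2 of 3 E11.5 controls and in 2 of 3 E12.5 mutants, and in 0 of 3 E11.5 mutants. *Krt80* made up 1.09% to 1.53% of the sum in controls and 2.74% to 3.33% in mutants at E11.5. At E12.5 its share was 5.39% to 9.48% in controls and 5.14% to 8.97% in mutants. Its share therefore overlapped between genotypes at E12.5, although its level did not.

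**Figure D4:**
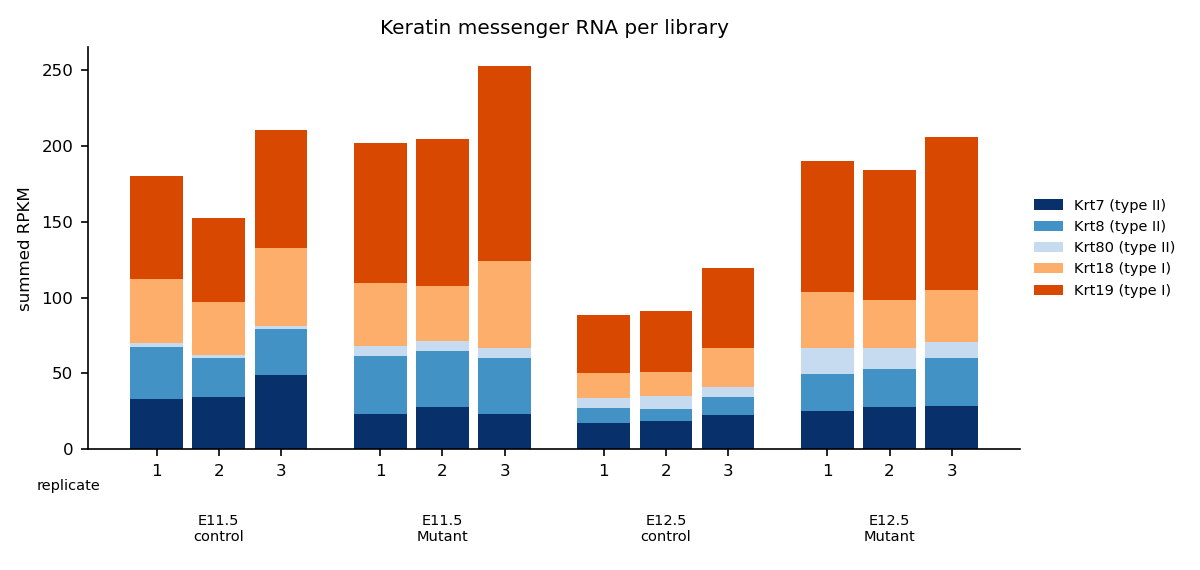
Summed RPKM of the 5 keratins (vertical axis, stacked by gene, type II in blue and type I in orange) in each library. The bars of the E12.5 controls reach 88.7 to 119 RPKM and those of the other 9 libraries 152 to 252 RPKM.

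Genes of the mesothelium and epicardium are set beside the keratins, and no test of a difference between the 2 lists was run. Of 11 tested genes of this list none was called between genotypes at E11.5 by edgeR. An unadjusted p under 0.05 was reached by 8 of them, beside 1242 of all 12197 genes. All 11 had a negative log2 fold change, from -1.07 to -0.11. Of them 6 lay wholly below the controls, as did 7.99% of all genes. The median was -0.69 against 0.00 over all genes, and of the keratins *Krt7*, at -0.64, lay nearest to it. *Wt1*, a transcription factor of the epicardium, had -0.74 (SE 0.17, adjusted p = 0.152, edgeR), and *Aldh1a2*, the retinoic acid enzyme of the epicardium, had -1.07 (SE 0.23, adjusted p = 0.131, edgeR). *Upk3b*, a mesothelial membrane protein, had -0.81 (SE 0.21, adjusted p = 0.204, edgeR), and *Tbx18* had -0.48 (SE 0.18, adjusted p = 0.384, edgeR). Under the alternatives at E11.5 *Aldh1a2* was called in 4 of 18, *Wt1* and *Upk3b* in 1 of 18 each and *Tbx18* in 0 of 18. At E12.5 the median was 0.14 and 1 of 11 was called. This was *Msln*, the mesothelial surface protein mesothelin, at 9.80, 11.7 and 10.6 RPKM in controls and 27.5, 23.7 and 14.7 RPKM in mutants, higher by 1.03 on the log2 scale (SE 0.19, adjusted p = 0.0140, edgeR). *Wt1* had -0.05 (SE 0.17), *Tbx18* 0.14 (SE 0.12), *Aldh1a2* 0.17 (SE 0.17) and *Upk3b* 0.19 (SE 0.14) at E12.5, none of them called. Between the stages in control hearts 10 of 11 had a negative value, with a median of -0.64, as had 4 of 5 keratins. *Upk1b*, *Tcf21*, *Upk3b* and *Wt1* fell, by 0.98, 0.81, 0.76 and 0.67 on the log2 scale (adjusted p = 0.0206, 0.0277, 0.0453 and 0.0307, edgeR), and *Msln* rose by 1.05 (adjusted p = 0.0433, edgeR). In mutant hearts *Msln* rose by 2.18 (adjusted p = 0.00866, edgeR) and the other 10 were not called. The list summed to 260 to 404 RPKM in controls and 170 to 234 RPKM in mutants at E11.5. At E12.5 it summed to 185 to 266 RPKM in controls and 229 to 266 RPKM in mutants. The part of mesothelial content in the keratin values was not tested.

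**Figure D5:**
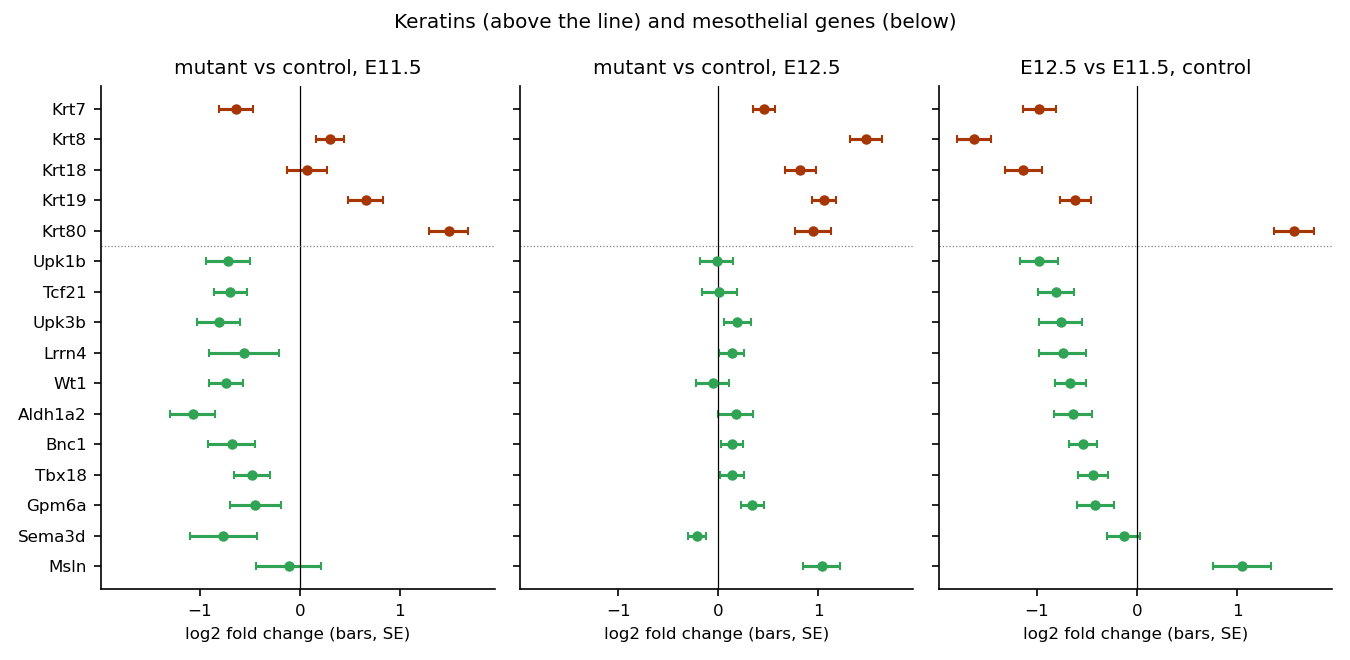
Log2 fold changes with SE (horizontal axes) of the 5 keratins and of the 11 tested mesothelial and epicardial genes in 3 comparisons. At E11.5 all mesothelial values are at or below -0.11, at E12.5 10 of 11 lie between -0.21 and 0.34 with *Msln* at 1.03, and the keratins at E12.5 lie between 0.46 and 1.48.

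Of 20 genes of desmosomes and keratin anchoring in the table, 13 were tested and the others were too low. None was called at E11.5 by edgeR, where 1 of 13 was under 0.05 by its unadjusted p. This was *Ppl*, at -1.33 on the log2 scale (SE 0.32, adjusted p = 0.173, edgeR), with all mutants below all controls. At E12.5 *Ppl* had 0.33 (SE 0.32), and its groups overlapped. At E12.5, 1 was called, lower in mutants, and 4 of 13 were under 0.05 by the unadjusted p. The medians were 0.14 and 0.08. The call was *Dsc2*, a desmosomal cadherin, which fell by 0.80 on the log2 scale in mutants (SE 0.11, adjusted p = 0.00466, edgeR). *Dsp*, the desmosomal plaque protein that binds the filaments, had 0.09 (SE 0.13), *Jup*, plakoglobin, had 0.10 (SE 0.09) and *Pkp2*, a plakophilin, had -0.08 (SE 0.06) at E12.5. *Itgb4*, the hemidesmosomal integrin chain, had 0.70 (SE 0.19, adjusted p = 0.0607, edgeR) with all mutants above all controls. *Evpl* and *Col17a1*, not tested at E12.5, also had all mutants above all controls, at means of 0.483 and 0.625 RPKM against 0.255 and 0.259 RPKM. Both were highest in E12.5 Mutant 3. Of the 13 genes tested at E12.5, 2 lay wholly above the controls, *Itgb4* and *Perp*. Another 3 lay wholly below, *Dsc2*, *Pkp2* and *Pkp4*. Of all genes 13.7% lay wholly above and 12.6% wholly below. Between the stages in control hearts the cytolinkers *Dst* and *Plec* rose, by 0.77 and 0.71 on the log2 scale (adjusted p = 0.0226 and 0.0258, edgeR), where the keratins other than *Krt80* fell.

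Among 24 genes of epithelial identity and junctions, 10 were tested at E12.5 and 3 were called higher in mutants. *Cldn3*, a claudin of tight junctions, was at 0.520, 0.443 and 0.536 RPKM in controls and 3.04, 3.39 and 2.45 RPKM in mutants, higher by 2.56 (SE 0.29, adjusted p = 0.00132, edgeR). *Spint1*, a protease inhibitor of epithelia, was higher by 2.52 (SE 0.60, adjusted p = 0.0381, edgeR), and *Ocln*, occludin, by 1.51 (SE 0.31, adjusted p = 0.0199, edgeR). All 3 are at low level, and *Spint1* was highest in E12.5 Mutant 3. The call of *Spint1* was lost in 7 of 14 alternatives, among them leaving out any 1 of the E12.5 controls, with values from 0.68 to 3.25 and adjusted p up to 0.162. That of *Ocln* was lost in 5 of 17, among them leaving out E12.5 Cre control 2, Mutant 2 or Mutant 3, and that of *Cldn3* in 0 of 17. *Cldn4*, another claudin, had the largest value, 3.14 (SE 0.85, adjusted p = 0.0597, edgeR), and was not called. It was at 0.372, 0.324 and 2.11 RPKM in the mutants, highest in E12.5 Mutant 3. *Lsr* had 0.42 (SE 0.11, adjusted p = 0.0505, edgeR). Of the 10 tested, 5 lay wholly above and 0 wholly below, beside 13.7% and 12.6% of all genes. *Epcam* had 1.68 (SE 0.82, adjusted p = 0.270, edgeR), and *Cdh1* was too low to be tested at E12.5. At E11.5 none of 15 was called by edgeR, and 9 had a negative and 6 a positive value. *Ocln* had 1.36 (SE 0.38, adjusted p = 0.232, edgeR) and *Cldn3* 1.24 (SE 0.54, adjusted p = 0.489, edgeR). These were the 2 with an unadjusted p under 0.05. *Epcam* had -0.60 (SE 0.78) and *Cdh1* -1.50 (SE 1.34). Between the stages in control hearts *Spint1* and *St14*, a membrane protease, fell by 2.82 and 1.74 on the log2 scale (adjusted p = 0.0394 and 0.0325, edgeR). Both were highest in E11.5 Cre control 1, where *Spint1* was at 2.23 RPKM.

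*Vim* and *Des*, filaments of mesenchyme and muscle, were far more abundant than the keratins and were not called. *Vim*, vimentin, was at 988 to 1106 RPKM and *Des*, desmin, at 337 to 365 RPKM as group means. At E12.5 *Vim* had 0.12 (SE 0.07) and *Des* -0.09 (SE 0.09) on the log2 scale. *Nes*, nestin, at 11.9 to 19.7 RPKM as group means, had 0.40 (SE 0.10, adjusted p = 0.0460, edgeR), short of the fold threshold. Of 11 tested intermediate filament genes outside the keratins 1 was called at E12.5, *Prph*, the peripherin of neurons, higher by 2.93 (SE 0.37, adjusted p = 0.00274, edgeR) from 0.275 to 2.11 RPKM. At E11.5 none of 10 was called by edgeR, and 3 had a negative and 7 a positive value. *Prph* had 2.69 (SE 0.51, adjusted p = 0.0961, edgeR) and *Nes* 0.72 (SE 0.18, adjusted p = 0.181, edgeR). These were the 2 with an unadjusted p under 0.05. At E11.5 *Prph* was called in 4 of 17 alternatives and *Nes* in 2 of 18. The median of the list was 0.10 at E11.5 and 0.02 at E12.5.

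The other 48 keratin genes of the table were low or silent. A mean of 1 RPKM in some group was reached by 6 of them, *Krt10*, *Krt20*, *Krt14*, *Krt17*, *Krt5* and *Krt15*. In E11.5 controls *Krt20* and *Krt10* averaged 3.43 and 3.17 RPKM, above *Krt80* at 2.39 RPKM. Of 7 tested at E12.5, *Krt14*, a keratin of basal epidermal cells, was called, at 0.474, 1.08 and 1.26 RPKM in controls and 2.24, 3.36 and 7.15 RPKM in mutants (higher by 2.16 on the log2 scale, SE 0.44, adjusted p = 0.0215, edgeR). *Krt10*, of differentiated epidermis, had -0.66 (SE 0.20, adjusted p = 0.0906, edgeR). *Krt20*, of the single-layered gut epithelium and outside the 5 chosen genes, had 0.12 (SE 0.22), and 0.05 (SE 0.24) at E11.5. The 5 genes are thus not all the keratins of single-layered epithelia. *Krt17* had 0.79 (SE 0.28, adjusted p = 0.130, edgeR), whereas *Krt5* and *Krt15* were high in 1 mutant library and their groups overlapped. Of the stratified epidermis list *Sfn* was called too, higher by 2.36 (SE 0.60, adjusted p = 0.0487, edgeR), a call lost in 7 of 15 alternatives, among them leaving out E12.5 Cre control 1 or 3 or Mutant 1. None of the other keratins was called by edgeR at E11.5 (1 of 5 tested had an unadjusted p under 0.05) or between the stages (3 of 6 tested in controls and 5 of 8 in mutants). Over all genes the counts under 0.05 were 1242 of 12197, 4017 of 12252 and 1134 of 12238.

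Of 14 genes of transcription factor families that act on keratin promoters (AP-1, ETS, SP, KLF and AP-2), 10 were tested at each stage and 0 were called by edgeR, with 0 at E11.5 and 2 at E12.5 at an unadjusted p under 0.05. Their medians were 0.12 at E11.5 and 0.19 at E12.5. Cardiomyocyte genes were not called between genotypes either, 0 of 12 at each stage by edgeR (0 at E11.5 and 6 at E12.5 at an unadjusted p under 0.05), with medians of 0.01 and 0.08. Over all genes 1242 of 12197 at E11.5 and 2621 of 12257 at E12.5 were under 0.05.

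The genes most like each keratin over the 12 libraries were found by Pearson's correlation of log2(CPM + 0.5), where CPM is the count scaled to the size of the library, among 12270 genes. The libraries fall into 4 groups, so the values describe the group pattern. For *Krt8* they were *Arhgap45* (0.947), *Cd24a* (0.943) and *Emb* (0.926). For *Krt18* they were *Gtf2e2* (0.959), *Pfn2* (0.947) and *Tmem64* (0.947), and for *Krt19* *Nipsnap1* (0.966), *Mdk* (0.952) and *Fkbp11* (0.951). For *Krt7* they were *Farsb* (0.933), *Atg5* (0.921) and *Mrps22* (0.919). For *Krt80* they were *Gas6* (0.976), *Tshz1* (0.962) and *Cntnap1* (0.956), and *Gas6*, a secreted ligand of TAM receptors, averaged 53.1 CPM in controls and 129 CPM in mutants at E11.5, and 120 CPM in controls and 215 CPM in mutants at E12.5. Among the keratins themselves the value was 0.916 for *Krt8* with *Krt18*, 0.865 for *Krt8* with *Krt19* and 0.835 for *Krt18* with *Krt19*. *Krt7* had 0.605 with *Krt8* and 0.352 with *Krt19*, and *Krt80* had -0.576 with *Krt7* and -0.169 with *Krt8*.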

How the data were processed

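RNA from E11.5 and E12.5 hearts was sequenced by the authors as paired ends, aligned with Bowtie (Bowtie2 and mm10 in the submitters' processing notes) and normalised with DESeq. The counting program, annotation and strand use are not given in the sources used here, and the sequencer is named differently by the paper and by the series' design text. The authors deposited a table of values named RPKM for 20368 genes, which are treated as scores, because each is a whole count multiplied, not divided, by gene length and a library factor. Their comparison tables hold expected counts (group averages of raw counts, deposited per the file headers) for 19424 genes, with fold changes and p-values that were not used. The factors were fitted on 10516 genes against the averages, and the counts of 17827 genes were recovered to within 4.22e-10 of a whole number. Another 1597 genes had no count.

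Counts were tested with edgeR 4.0.16 (quasi-likelihood, TMM, R 4.3.3) for genes averaging 0.5 RPKM or more in the libraries compared. Interactions needed the adjusted p alone. RPKM and CPM are computed here from recovered counts, gene lengths inferred from the deposited values, and TMM-scaled library sizes over all 12 libraries. Standard errors come from edgeR's F statistic. A library was male at 100 or more counts on 4 Y-linked genes. Scripts were tested on simulated data. Alternatives were DESeq2 1.42.0, limma 3.58.1 on log2(RPKM + 0.5), other pseudocounts (0.1 and 1), no filter, a mean of 5 RPKM, median-ratio scaling, a fit of all 12 libraries together, no threshold on the fold, a replicate block, sex as a covariate, and each library left out in turn. With 3 libraries a group, exact permutation reaches 0.1 as its smallest two-sided p, so it was not used. The members, the gene lists and the rule for named genes (each member, keratins of at least 1 RPKM, called genes and defining genes of each list, and the 3 genes most like each member) were chosen with earlier results of these data known. Of the erythroid list, 1 gene is not reported here.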

Additional observations from a re-analysis of the deposited data

Results flagged for a closer look

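*Krt7* stood out because its 3 mutant libraries were all below the controls at E11.5 and all above them at E12.5. Subtracting the E11.5 from the E12.5 mutant effect gave 1.10 on the log2 scale (SE 0.22). The values of *Krt7* are among those the genes were chosen on, so this difference is a description. Over the whole table no gene passed the test of that difference by edgeR. All 11 tested mesothelial and epicardial genes also had a positive difference, with a median of 0.70 against -0.0009 over all 12270 genes. The share of all genes whose libraries changed sides in this way was not counted.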

How the results depend on the processing

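The number of keratins called between genotypes at E11.5 was 1, and became 0 with a mean of 5 RPKM, with sex as a covariate, and with the libraries holding genes of other tissues left out, and 3 (*Krt7*, *Krt19* and *Krt80*) with DESeq2, which called 248 genes of the whole table against 14. Leaving out each library in turn gave 0 to 0. At E12.5 it was 4, became 1 with those libraries left out (29 genes of the table against 362), was 2 to 4 with each library left out, and 3 to 5 under all other alternatives. Between the stages in controls it was 5, became 0 with sex as a covariate (19 genes against 647), was 2 to 5 with each library left out, and 4 or 5 otherwise. It was 2, *Krt8* and *Krt80*, without E12.5 Cre control 1 or 2 (44 and 108 genes of the table). Between the stages in mutants it was 0, became 1 (*Krt80*) in a fit of all 12 libraries together, without a filter and with DESeq2 (119, 119 and 227 genes against 68), and was 0 to 0 with each library left out. For the difference between stages it was 0, became 2 (*Krt7* and *Krt8*) with DESeq2 (43 genes against 0), and was 0 to 0 with each library left out. Over the whole table, leaving out each library in turn gave 0 to 15 calls between genotypes at E11.5 and 151 to 368 at E12.5. Between the stages it gave 44 to 1406 calls in controls and 1 to 123 in mutants, and for the difference between stages 0 to 10. The cause of these changes was not tested, except that *Krt80* is under 5 RPKM on average at E11.5 and so was not tested there. Of the other genes called at E12.5, *Msln* lost its call in 2 of 18 alternatives, *Krt14* in 3 of 17, *Dsc2* in 2 of 18 and *Prph* in 1 of 17. Same-numbered libraries share only a number. The correlation of their deviations from the group means ran from -0.210 to 0.525, and the replicate block gave 1, 4, 5, 0 and 0 keratins in the order above. Fold changes of the 5 keratins kept their sign in 466 of 468 refits. The exceptions were *Krt18* at E11.5, where the groups overlap.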
